A study of Mus musculus with 12 samples.

Results

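Regnase-1, encoded by Zc3h12a, was depleted in bone marrow-derived mast cells (BMMCs) with an siRNA mixture called si12A, and its transcripts were compared with those of cells that received the control siRNA siGLO. The 3 si12A libraries were set against the 3 siGLO libraries and paired by replicate number, and the members are the 496 of 754 endogenous and reference probes whose count passed the background of the negative control probes. Just inside that rule lay 23 probes, above background in 3 of 12 libraries, whose median counts over the si12A and siGLO libraries were 12.5 to 20, and just outside it lay 28 probes, above background in 2 of 12, with median counts of 10 to 20.

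The si12A and the siGLO cells were BMMCs of young adult C57BL/6 mice, grown from total bone marrow with IL-3 for several weeks, electroporated with siRNA, kept for 48 h and then exposed to IgE and antigen complexes for 2 h. No gene was deleted in either group, and the groups differed in the siRNA alone. Each of 3 mice gave 1 library per group, equal replicate numbers being taken here as cells of 1 mouse. The labels give this number and do not name a mouse, so "mouse 1" below means the libraries numbered 1, and so on. RNA (50 ng) was read on the NanoString nCounter system with a panel for myeloid cells and innate immunity, in which coloured probes bound to single transcripts are counted. Libraries of cells depleted of Regnase-3 (si12C) and of both proteins (si12A+C) were part of the same study. As a model, si12A is a transient depletion by a mixture of siRNAs in a culture of cells taken as a whole, and the labels name no sort for cells that took up the siRNA.

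Regnase-1 is an endoribonuclease that cuts stem-loop structures lying after the coding sequence of mRNAs for inflammatory proteins, such as those of Il6, Il1b, Il2, Nfkbiz and Ptgs2, and its own mRNA is also cut by it. Mast cells are tissue cells that store proteases and histamine in granules. When antigen crosslinks IgE on their Fc receptor they release these granules, and within hours they transcribe cytokine and chemokine genes, among them Tnf and Il13. The comparison asks which of these transcripts differ when Regnase-1 is targeted.

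The si12A mixture held 4 siRNAs against Zc3h12a, of 19 bases each and with a GC content of 36.8% to 57.9%. They are shown because every difference below is a difference between these 4 siRNAs and the control, and no base is in capitals since none is singled out.
siRNA 1: gcagagatcctgtcttaca
siRNA 2: gagcgaggccacacagata
siRNA 3: gaaatgtacgtatggaatc
siRNA 4: gaaagggctggtgtatata
No probe for Zc3h12a or Zc3h12c was analysed here, so the depletion itself could not be checked in these counts.

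The libraries held 722486 to 819974 counts in si12A and 447310 to 701600 in siGLO, and the si12A library was the deeper in 3 of 3 mice, with ratios of 1.07, 1.62 and 1.39. The positive control probes, which count RNA spiked into each assay, were also higher in si12A in each mouse, by 1.18, 2.32 and 1.81 times. Scaled counts, used below, divide each count by the size of its library (TMM) relative to the mean of the 12. On that scale the background limit was 16.1 to 24.7 in si12A and 16.1 to 31.6 in siGLO, with the highest limit in siGLO of mouse 2. The cells carried the transcripts that define mast cells. Fcer1a, which encodes the IgE-binding alpha chain, held 31950, 34184 and 30666 scaled counts in si12A cells of mice 1, 2 and 3, against 31507, 37208 and 32260 in siGLO cells. Kit, the receptor for stem cell factor, held 820, 566 and 704 in si12A cells and 854, 413 and 730 in siGLO cells.

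In si12A BMMCs 9 genes rose and 18 fell relative to siGLO, at an adjusted p of at most 0.05 and a log2 fold change beyond 0.5. Those that rose included Tnf, the early response genes Btg2, Dusp1 and Nr4a2, the transcription factors Stat5a and Stat6, and Cnn2 and Rab20. Those that fell included genes of mitosis and replication (Top2a, Cdc20, Ccnb2 and 2810417H13Rik, now named Pclaf), surface proteins (Tspan8, Cx3cr1, Il1r2, Gpr183 and Ptprb) and metabolic and housekeeping genes (Fasn, Crabp2, Calr, Txn1 and Ppia). Among all 496 probes tested this was 1.81% called higher and 3.63% called lower, or 5.44% in all. The 9 genes that rose averaged 173 to 9572 scaled counts in si12A and 98.1 to 5280 in siGLO, and each passed the background in all 6 libraries. Of the 18 that fell, 12 passed it in all 6 libraries, and the 6 others included Rasal1, Gpr183, Tspan8, Ptprb and Abcc8. In bulk RNA of this kind, fewer cells of a type and less RNA per cell cannot be told apart.

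The test was edgeR's quasi-likelihood test with the mouse as a block, adjusted over all 496 probes, and its estimate of spread and of the mouse effect also drew on the 6 si12C and si12A+C libraries. With only the si12A and siGLO libraries in the same fit 0 genes were called higher and 1, Tspan8, lower, with 115 at an unadjusted p under 0.05. Without the block it called 0 genes (0%), with 38 at an unadjusted p under 0.05 and a smallest adjusted p of 0.568, whereas with DESeq2 and the block 16 genes were higher and 20 lower (7.26%). Single libraries also moved the counts. With the si12A library of mouse 1, 2 or 3 left out, 9, 4 or 5 genes rose and 12, 5 or 4 fell, and with the siGLO library of mouse 1, 2 or 3 left out, 13, 2 or 11 rose and 24, 5 or 8 fell. Only Tspan8, Crabp2, Fasn and Calr were called in each of these 6 fits. With a whole mouse left out in turn, Tspan8 alone kept its call each time.

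**Figure D1:**
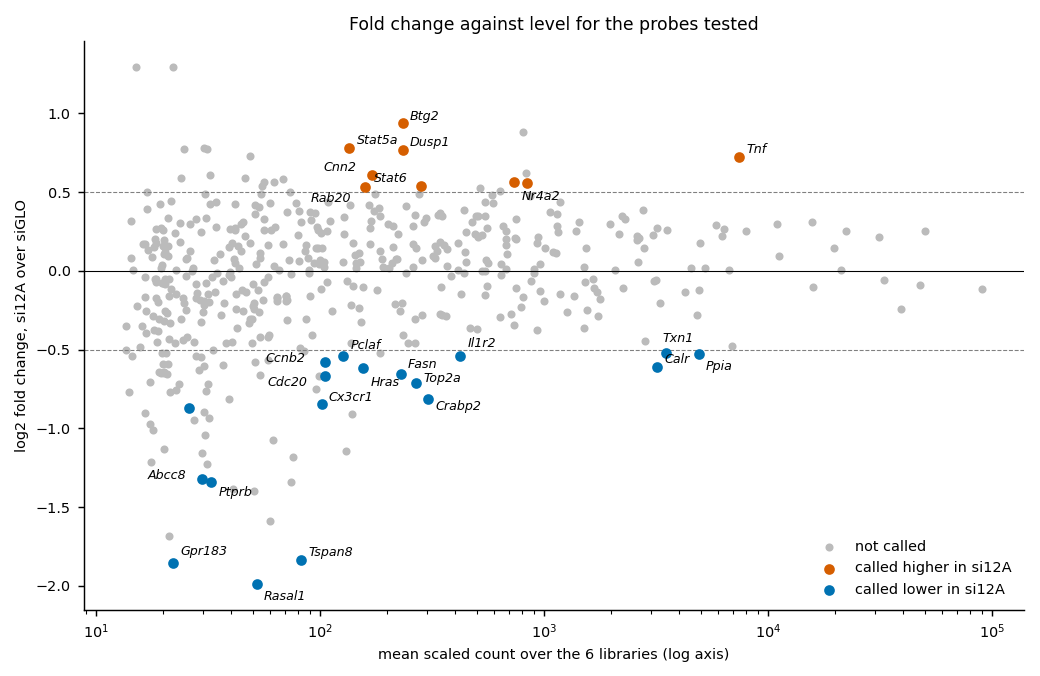
Log2 fold change of si12A over siGLO (y axis) against the mean scaled count over the 6 libraries (x axis, log scale), 1 point per probe tested. Orange points are the 9 genes called higher and blue points the 18 called lower, and dashed lines mark log2 fold changes of -0.5 and 0.5. The called genes with the most negative fold changes lie at mean scaled counts under 100.

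Spread within groups was compared with the gap between them. Over all probes, the si12A values all lay above the siGLO values for 29 (5.85%) and all below them for 46 (9.27%). Of the called genes this held for Btg2 and Cnn2 among the 9 that rose, and for 12 of the 18 that fell. Within mice, 126 probes (25.4%) were higher in si12A in 3 of 3 mice and 121 (24.4%) lower. All 9 genes that rose and all 18 that fell moved the same way in 3 of 3 mice.

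Tnf, the cytokine that mast cells make early after IgE crosslinking, held 5126, 19316 and 4275 scaled counts in si12A cells of mice 1, 2 and 3, against 3202, 9401 and 3238 in siGLO cells. Cells of mouse 2 made the most Tnf transcript with either siRNA, so the groups overlapped, but si12A was the higher in each mouse. Its log2 fold change was 0.72 with an SE of 0.15 (adjusted p = 0.0157), and values after ± are such SEs below. It was the only one of 39 cytokines and growth factors tested that was called, beside 5.44% of all probes. The median of that list was 0.04 beside 0.01 over all probes. The call was lost when mouse 2 lacked its si12A library (0.48, adjusted p = 0.0639) or its siGLO library (0.72, adjusted p = 0.0816). With both libraries of a mouse left out, Tnf was still called without mouse 1 or mouse 2, and was not called without mouse 3.

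Of 7 tested transcripts listed here as known Regnase-1 targets, 0 were called in either direction, beside 5.44% of all probes. Of their 7 fold changes 6 were above 0, against 260 of 496 over all probes. Tnf, which the study proposes as a direct target, is not in this list and was called higher. The list was written with these data's results known, and 4 of its members are genes that the study named from the same samples. Il2, a T cell growth factor that activated mast cells also transcribe, held 662, 2102 and 477 scaled counts in si12A cells and 547, 838 and 231 in siGLO cells, with a log2 fold change of 0.88 ± 0.26 that missed the threshold (adjusted p = 0.0543). Nfkbiz, which encodes an inducible cofactor of NF-kB, had 774, 1747 and 626 in si12A cells, against 537, 678 and 620 in siGLO cells (0.62 ± 0.19, adjusted p = 0.0633). Both were thus higher in si12A in 3 of 3 mice, with mouse 2 far apart in Nfkbiz and mouse 3 almost level.

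Il1b, which encodes interleukin 1 beta, was lower in si12A in mouse 1 and higher in mice 2 and 3, at 120, 259 and 254 scaled counts in si12A cells and 150, 130 and 195 in siGLO cells (0.35 ± 0.18, adjusted p = 0.22). Il6 held 21400, 31062 and 21160 in si12A cells, against 19421, 19543 and 21553 in siGLO cells (0.25 ± 0.12, adjusted p = 0.169). Ptgs2, the inducible cyclooxygenase, Ier3, an early response gene, and Cxcl2, a neutrophil chemokine, had log2 fold changes of 0.28 ± 0.17, 0.18 ± 0.11 and -0.12 ± 0.22. Il13, the type 2 cytokine, was abundant in both groups and almost level, with 19022, 27236 and 18042 in si12A cells and 19542, 23324 and 19968 in siGLO cells (0.01 ± 0.10, adjusted p = 0.966). The median of the known targets was 0.28 beside 0.01 over all probes, and with libraries scaled on the positive controls, which moves every probe alike, it was -0.14 beside -0.38.

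Chemokine transcripts were among the most abundant on the panel. Of 19 tested 0 were called, beside 5.44% of all probes, with a median of -0.12. Ccl2, which draws monocytes, held 55124, 69958 and 39876 scaled counts in si12A cells, against 47290, 48463 and 39247 in siGLO cells (0.25 ± 0.10, adjusted p = 0.104). The list's lowest fold change belonged to Ccl26, an eosinophil chemokine, at 32.9, 25.0 and 22.8 in si12A cells and 49.5, 156 and 72.4 in siGLO cells (-1.59 ± 0.54, adjusted p = 0.0765). These groups did not overlap, and the count passed the background in each of the 6 libraries. The si12A values lay near the background limit, however, and siGLO of mouse 2 was far above siGLO of the other mice.

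**Figure D2:**
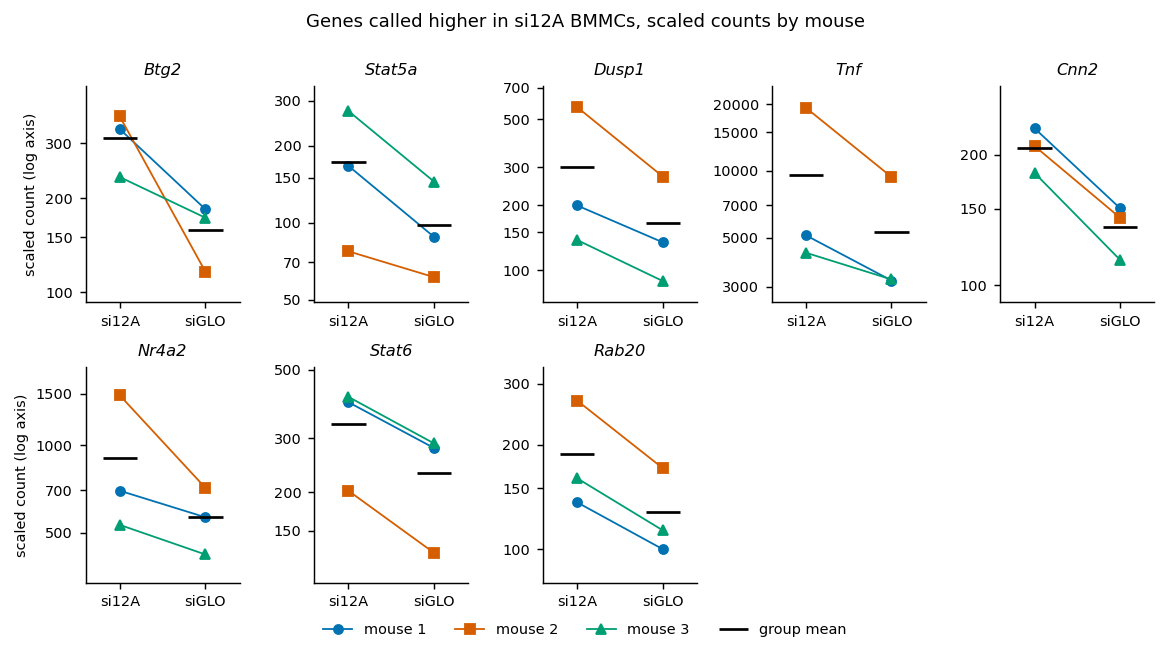
Scaled counts (y axis, log scale, a range of its own per gene) of 8 of the 9 genes called higher, in si12A cells (left) and siGLO cells (right) of each gene's panel; lines join cells of 1 mouse and black bars are group means (n = 3 libraries per group). Every line falls to the right, and only in Btg2 and Cnn2 do the si12A and siGLO values not overlap.

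Early activation genes, transcribed within the first hours after a stimulus, held 3 of the 9 genes that rose. Btg2, an antiproliferative protein that brings the CCR4-NOT deadenylase to mRNAs, held 333, 365 and 234 scaled counts in si12A cells of mice 1, 2 and 3, against 184, 116 and 173 in siGLO cells. Each si12A value was above each siGLO value, and the widest gap was in mouse 2. Its log2 fold change was 0.94 ± 0.20 (adjusted p = 0.0157), the largest among genes that rose. Dusp1, a phosphatase that switches off MAP kinases, held 200, 570 and 138 in si12A cells and 135, 272 and 89.2 in siGLO cells, and rose by 0.77 ± 0.13 (adjusted p = 0.00724). Nr4a2, an orphan nuclear receptor, held 698, 1482 and 533 in si12A cells and 566, 714 and 422 in siGLO cells, and rose by 0.57 ± 0.15 (adjusted p = 0.0444). For both, cells of mouse 2 were highest with either siRNA, and the groups overlapped.

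These calls leaned on mouse 2. Without its si12A library the adjusted p was 0.0639 for Btg2 and 0.202 for Nr4a2, and without its siGLO library it was 0.0816 for Btg2, 0.0554 for Dusp1 and 0.195 for Nr4a2, with log2 fold changes between 0.40 and 0.77. Nr4a2 was also not called without si12A of mouse 3 (0.59, adjusted p = 0.0908) or siGLO of mouse 1 (0.60, adjusted p = 0.0674). With both libraries of a mouse left out, Btg2 was not called without mouse 2, nor Dusp1 or Nr4a2 without mouse 2 or mouse 3.

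Over the whole early activation list 3 of 28 tested genes rose and 0 fell, beside 1.81% and 3.63% of all probes. In si12A, 16 of 28 were higher in 3 of 3 mice, beside 25.4% of all probes. The median log2 fold change was 0.30 beside 0.01 over all probes, and with libraries scaled on the positive controls it was -0.12 beside -0.38. Socs2, a suppressor of cytokine signalling in the JAK-STAT list, passed the p threshold at 0.48 ± 0.13 (adjusted p = 0.0435), under the fold minimum. Cd69, an activation marker, Fosb, an AP-1 subunit, and Rgs1, a regulator of G-protein signalling, had log2 fold changes of 0.52 ± 0.15, 0.51 ± 0.15 and 0.47 ± 0.14, each at an adjusted p of 0.0543. For Cd69 the 592, 728 and 523 scaled counts of si12A cells lay above the 476, 329 and 472 of siGLO cells. Myc, a growth regulator in the same list, went the other way in each mouse, with 831, 435 and 672 in si12A cells, against 1009, 541 and 908 in siGLO cells (-0.34 ± 0.09, adjusted p = 0.0465, also under the fold minimum).

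Promoter sequences of RefSeq (build GRCm38.p6) matched 19 of the 28 early activation genes, and 3 of the 19, Btg2, Dusp1 and Maff, held TGACGTCA, the full cAMP response element bound by CREB and ATF proteins, on either strand. Over all genes with a promoter in the table, 549 of 27025 (2.03%) held it. The stretches from base -200 to base -101 before the start site are shown for Btg2 and Dusp1 because both genes rose, with the element in capitals.
Btg2 promoter, chr1:134079256-134079355, minus strand: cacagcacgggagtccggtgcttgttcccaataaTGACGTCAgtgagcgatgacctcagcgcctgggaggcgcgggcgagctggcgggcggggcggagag
Dusp1 promoter, chr17:26508573-26508672, minus strand: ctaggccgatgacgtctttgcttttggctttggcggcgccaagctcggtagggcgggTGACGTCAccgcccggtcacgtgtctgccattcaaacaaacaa
The element began at base -166 in Btg2 and at base -143 in Dusp1. The Nr4a2 promoter did not hold these letters in the stretch searched, and Maff, a small Maf transcription factor, was not called (0.59 ± 0.23, adjusted p = 0.113).

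Stat5a and Stat6 encode transcription factors that cytokine receptors switch on, Stat5a downstream of IL-3 and related growth factors and Stat6 downstream of IL-4 and IL-13. Stat5a held 167, 77.4 and 273 scaled counts in si12A cells of mice 1, 2 and 3, against 88.1, 61.3 and 145 in siGLO cells, and rose by 0.78 ± 0.14 (adjusted p = 0.00814). Here mouse 2 was the lowest in either group and showed the smallest difference. Stat6 held 393, 203 and 409 in si12A cells and 279, 127 and 289 in siGLO cells, and rose by 0.54 ± 0.11 (adjusted p = 0.0126). Neither call held without si12A of mouse 3 (adjusted p = 0.0659 for both, with log2 fold changes of 0.68 for Stat5a and 0.52 for Stat6), and Stat6 was not called without siGLO of mouse 2 either (0.48, adjusted p = 0.0707).

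Of 16 tested genes of JAK-STAT signalling, 2 rose, 0 fell and 10 were higher in si12A in 3 of 3 mice. Over all probes these shares were 1.81%, 3.63% and 25.4%. The median of the list was 0.38, or -0.01 beside -0.38 over all probes under scaling on the positive controls. Stat5b, the close relative of Stat5a, had 0.56 ± 0.17 (adjusted p = 0.0614) and Ifnar1, a chain of the type I interferon receptor, 0.73 ± 0.21 (adjusted p = 0.0543). NF-kB signalling and feedback genes had 0 of 18 called, with 17 of 18 fold changes above 0, against 260 of 496 over all probes. Their median was 0.28, or -0.10 beside the same -0.38 under that scaling. Nfkb1, which encodes the p105 and p50 subunits, had 0.36 ± 0.11, and Tnfaip3, the feedback inhibitor A20, 0.36 ± 0.11, at adjusted p of 0.0543 and 0.0647. Tnfaip3 varied more between mice than between siRNAs, with 270, 79.7 and 556 scaled counts in si12A cells, against 233, 61.3 and 398 in siGLO cells.

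Cnn2 and Rab20 also rose. Cnn2, an actin-binding calponin, held 230, 209 and 182 scaled counts in si12A cells, against 150, 143 and 114 in siGLO cells (0.61 ± 0.12, adjusted p = 0.00936). Its differences within mice were close to each other, at 0.61, 0.55 and 0.66 on the log2 scale for mice 1, 2 and 3, and its call was lost only without si12A of mouse 3 (0.58, adjusted p = 0.0624) among the 6 libraries left out in turn. Rab20, a small GTPase of endosomes and phagosomes, held 137, 269 and 160 in si12A cells and 100, 171 and 113 in siGLO cells (0.53 ± 0.15, adjusted p = 0.0476), and was called in 1 of these 6 fits, the one without siGLO of mouse 1.

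**Figure D3:**
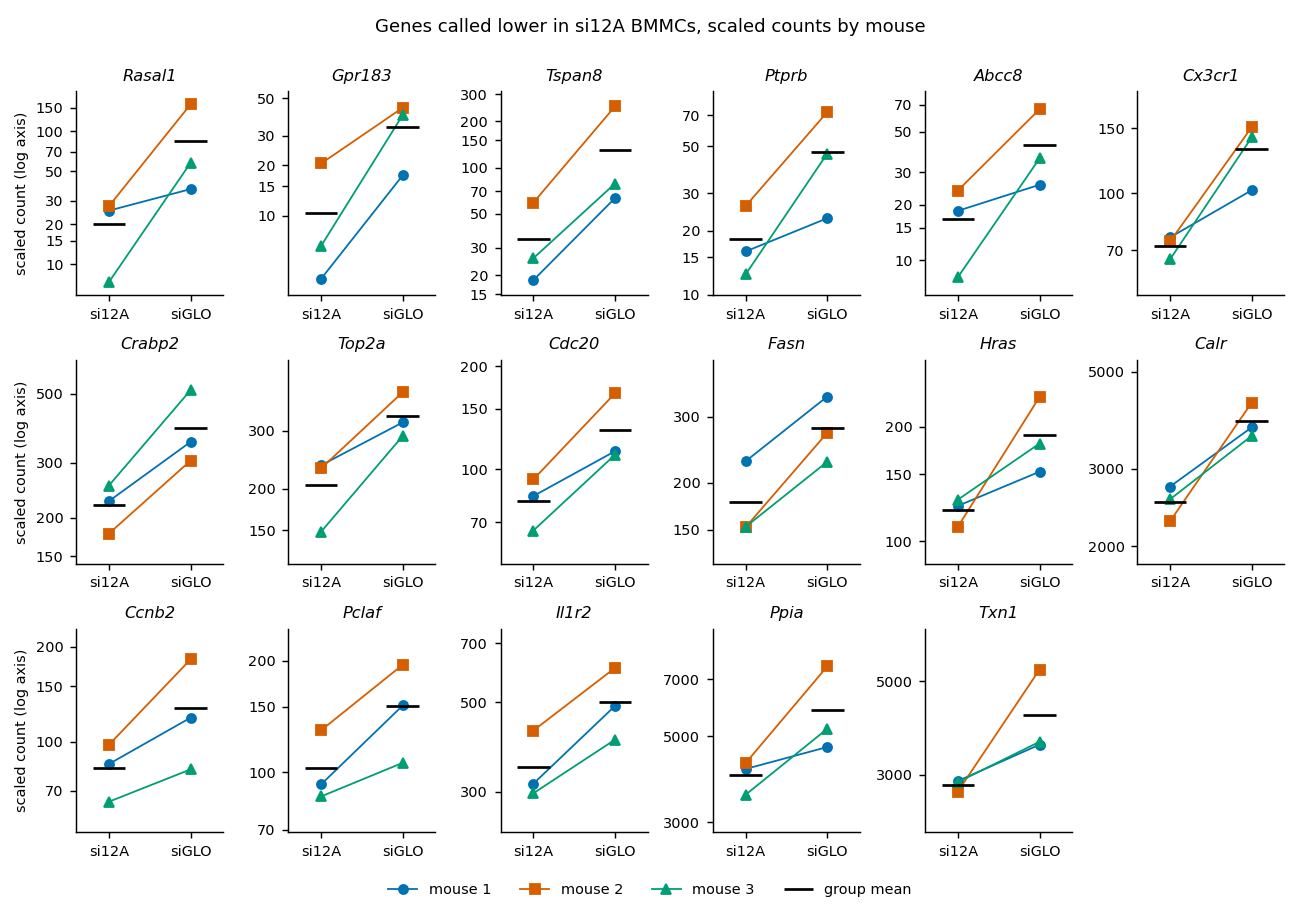
Scaled counts (y axis, log scale, a range of its own per gene) of 17 of the 18 genes called lower, in si12A cells (left) and siGLO cells (right) of each gene's panel; lines join cells of 1 mouse and black bars are group means (n = 3 libraries per group). Every line climbs to the right, and siGLO of mouse 2 is the topmost siGLO point in most panels, though not in Crabp2 and Fasn.

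Transcripts of cell division and DNA replication were lower in si12A cells. Of 8 tested, 5 fell and 0 rose, beside 3.63% and 1.81% of all probes. In si12A, 8 of 8 were lower in 3 of 3 mice, beside 24.4% of all probes. Their median log2 fold change was -0.62 beside 0.01 over all probes. Top2a, the topoisomerase that untangles chromosomes in mitosis, held 236, 231 and 148 scaled counts in si12A cells, against 318, 393 and 290 in siGLO cells, and fell by 0.71 ± 0.13 (adjusted p = 0.00756). Cdc20, an activator of the anaphase-promoting complex, held 83.4, 93.3 and 66.1 in si12A cells and 113, 167 and 110 in siGLO cells, and fell by 0.66 ± 0.15 (adjusted p = 0.021). For both genes each si12A value lay below each siGLO value.

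Ccnb2, cyclin B2, held 85.1, 97.9 and 64.7 scaled counts in si12A cells, against 119, 182 and 81.9 in siGLO cells (-0.58 ± 0.15, adjusted p = 0.042). Pclaf, which binds the replication clamp PCNA, held 92.7, 130 and 86.0 in si12A cells and 151, 195 and 106 in siGLO cells (-0.54 ± 0.14, adjusted p = 0.042). In both genes the groups overlapped, although each mouse had the lower value in si12A cells.

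The 3 members that were not called were Mcm5, a subunit of the replicative helicase (-0.91 ± 0.29, adjusted p = 0.0647), Birc5, survivin (-0.45 ± 0.21, adjusted p = 0.162), and Kif20a, a mitotic kinesin (-0.33 ± 0.22, adjusted p = 0.336). Mcm5 held 96.1, 110 and 69.1 scaled counts in si12A cells and 115, 308 and 134 in siGLO cells, so that most of its difference lay in mouse 2. Hras, a Ras GTPase of growth signalling outside this list, held 124, 109 and 129 in si12A cells, against 152, 239 and 180 in siGLO cells (-0.62 ± 0.17, adjusted p = 0.0476), and was called in 1 of the 6 fits that left out a library, the one without siGLO of mouse 1.

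The calls of the cell cycle genes depended on single libraries to different degrees. Top2a was called in 5 of the 6 fits that left out 1 library, all but the one without si12A of mouse 3 (-0.61, adjusted p = 0.0573), Cdc20 in 2, Pclaf in 1, and Ccnb2 in 0, with adjusted p up to 0.207 where a call was lost. Every one of these values stayed below 0. The list's median was -0.36 when libraries were scaled on the well-detected reference genes, which raised the median of all probes to 0.26, and lower still under the other scalings. None of the list's called genes stayed called under scaling on the well-detected or on all reference genes. All of them did under scaling on the positive controls or with DESeq2 size factors.

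Promoters of 6 of the 8 cell cycle genes were in the RefSeq table. TTTGAA, the core of the cell cycle homology region through which repressor complexes act in resting cells, was held on either strand by 3 of the 6 (Top2a, Cdc20 and Ccnb2), and by 5466 of 27025 genes (20.2%) in the whole table. CCAAT, bound by NF-Y, was held by 5 of the 6 and by 41.1% of all genes. The stretches from base -100 to base 49 around the start site are shown for Ccnb2, Cdc20 and Top2a because all 3 fell, with both motifs in capitals on either strand.
Ccnb2 promoter, chr9:70421505-70421654, minus strand: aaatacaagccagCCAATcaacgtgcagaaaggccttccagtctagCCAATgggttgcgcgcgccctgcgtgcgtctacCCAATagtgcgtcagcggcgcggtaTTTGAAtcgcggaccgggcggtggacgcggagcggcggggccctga
Cdc20 promoter, chr4:118437294-118437443, minus strand: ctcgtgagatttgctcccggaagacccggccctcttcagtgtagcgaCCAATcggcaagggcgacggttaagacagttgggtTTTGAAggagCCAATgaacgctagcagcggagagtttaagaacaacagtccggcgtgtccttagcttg
Top2a promoter, chr11:99024140-99024289, minus strand: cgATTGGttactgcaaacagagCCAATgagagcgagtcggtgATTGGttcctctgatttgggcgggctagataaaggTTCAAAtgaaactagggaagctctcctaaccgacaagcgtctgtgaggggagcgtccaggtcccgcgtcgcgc
In these stretches TTTGAA, read on either strand, began at base 4 in Ccnb2, at base -18 in Cdc20 and at base -23 in Top2a, and none of the marked motifs overlapped another.

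Tspan8, a tetraspanin of the cell surface, had the smallest adjusted p of all 496 probes. It held 18.5, 59.2 and 25.7 scaled counts in si12A cells of mice 1, 2 and 3, against 63.3, 250 and 78.7 in siGLO cells. Mouse 2 was highest with either siRNA, and each si12A value lay below each siGLO value. Tspan8 fell by 1.83 ± 0.18 (adjusted p = 8.57e-05), with log2 differences of -1.72, -2.06 and -1.58 in the 3 mice. It was called in each fit that left out 1 library or 1 mouse, and the si12A count of mouse 1 did not pass the background.

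Cx3cr1, the fractalkine receptor of monocytes and macrophages, held 75.8, 74.0 and 66.1 scaled counts in si12A cells, against 102, 151 and 142 in siGLO cells, with no overlap (-0.85 ± 0.18, adjusted p = 0.018). Il1r2, a decoy receptor that takes up interleukin 1, held 314, 426 and 298 in si12A cells and 490, 608 and 404 in siGLO cells (-0.54 ± 0.13, adjusted p = 0.0299), and was called in 1 of the 6 fits that left out a library. Cx3cr1 was called in 2 of them, with adjusted p of 0.0757 to 0.0971 in the others.

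Markers of other cells that a bone marrow culture can hold were also counted. Of 17 macrophage and monocyte markers on the panel, 11 passed the background in none of the 6 libraries, among them Csf1r, Cd14 and C1qa, which define those cells. The 6 tested had fold changes below 0, against 236 of 496 over all probes, with 1 called (Cx3cr1) and a median of -0.30. The summed level of all 17 ran from 2399 to 4410 in si12A and from 2288 to 5188 in siGLO. Ly6c1, at a mean of 2981 scaled counts in si12A and 3193 in siGLO, made up most of that sum, so it says little of the other markers. Adgre1, the macrophage antigen F4/80, held 13.5, 34.1 and 19.1 in si12A cells, against 22.0, 70.7 and 27.3 in siGLO cells (-0.76 ± 0.25, adjusted p = 0.0676). Neutrophil markers had 0 of 5 tested called, and S100a8, S100a9 and Ly6g passed the background in none of the 6 libraries. For eosinophil and basophil, dendritic cell, lymphocyte, and stromal and endothelial markers 0 were called of 4, 3, 3 and 3 tested. Over all probes the share called was 5.44%. The part of such cells in the fall of Cx3cr1 was not tested.

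Rasal1, Gpr183, Ptprb and Abcc8 had large fold changes from counts near background. Rasal1, a GTPase-activating protein for Ras, held 25.3, 27.3 and 7.35 scaled counts in si12A cells and 36.7, 159 and 57.7 in siGLO cells (-1.99 ± 0.52, adjusted p = 0.0444). Gpr183, a receptor for oxysterols, held 4.21, 20.5 and 6.61 in si12A cells, against 17.4, 44.0 and 39.9 in siGLO cells (-1.85 ± 0.47, adjusted p = 0.0426), and passed the background in 0 of 3 si12A and 2 of 3 siGLO libraries. In each of these 4 genes siGLO of mouse 2 held the highest value.

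Ptprb, a receptor tyrosine phosphatase, fell by 1.34 ± 0.36 (adjusted p = 0.0465), and Abcc8, the sulfonylurea receptor of potassium channels, fell by 1.32 ± 0.34 (adjusted p = 0.0426). Abcc8 held 18.5, 23.9 and 8.08 scaled counts in si12A cells, against 25.7, 66.0 and 35.7 in siGLO cells, and passed the background in 0 of 3 si12A and 3 of 3 siGLO libraries, so that the size of its fold change, like that of Gpr183, rests on si12A counts not above background. Ptprb held 16.0, 26.2 and 12.5 in si12A cells, against 22.9, 72.3 and 46.2 in siGLO cells, and passed it in 1 of 3 si12A libraries. Without siGLO of mouse 2 none of the 4 was called, with adjusted p of 0.139 for Rasal1, 0.0654 for Gpr183, 0.13 for Ptprb and 0.12 for Abcc8. Of the 6 fits that left out 1 library, Rasal1 and Abcc8 were called in 2, and Gpr183 and Ptprb in 1. Faf1, a Fas-associated factor, lay just outside the threshold, with 21.9, 21.6 and 9.55 in si12A cells and 23.8, 77.0 and 33.6 in siGLO cells (-1.23 ± 0.34, adjusted p = 0.0501).

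Among metabolic genes, Crabp2 and Fasn fell with all libraries and in each fit that left out 1 of them. With a whole mouse left out, Crabp2 was not called without mouse 3, nor Fasn without mouse 2 or mouse 3. Crabp2, which carries retinoic acid to the nucleus, held 226, 178 and 254 scaled counts in si12A cells, against 350, 305 and 514 in siGLO cells, with no overlap (-0.81 ± 0.12, adjusted p = 0.00296). Fasn, the fatty acid synthase, held 228, 152 and 153 in si12A cells and 339, 272 and 228 in siGLO cells (-0.65 ± 0.12, adjusted p = 0.00756), so that the highest si12A value about equalled the lowest siGLO value. These were the 2 called of 12 tested genes of lipid and sterol metabolism, beside 5.44% called over all probes. The median of that list was 0.05. Acly, which makes the acetyl-CoA that Fasn uses, had 0.14 ± 0.15.

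Calr, calreticulin, a calcium-binding chaperone of the endoplasmic reticulum that also serves MHC class I assembly, held 2734, 2279 and 2558 scaled counts in si12A cells, against 3730, 4248 and 3568 in siGLO cells, with no overlap (-0.61 ± 0.10, adjusted p = 0.00724). It was the only gene called of 18 in the MHC and antigen presentation list, beside 5.44% of all probes. The median of that list was -0.11. Txn1, thioredoxin, held 2902, 2740 and 2884 in si12A cells, against 3540, 5332 and 3595 in siGLO cells (-0.52 ± 0.12, adjusted p = 0.0298). Here the si12A values were almost level and siGLO of mouse 2 stood apart, and without it Txn1 was not called (-0.36, adjusted p = 0.119), nor without si12A of mouse 2 (-0.39, adjusted p = 0.139) or of mouse 3 (-0.58, adjusted p = 0.0659). Tyrobp, the DAP12 adaptor of activating receptors, had 1700, 3356 and 2163 in si12A cells and 2496, 4348 and 2875 in siGLO cells (-0.45 ± 0.11, adjusted p = 0.0324, under the fold minimum).

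Among the reference genes of the panel 1, Ppia, was called lower. Ppia, cyclophilin A, held 4114, 4260 and 3531 scaled counts in si12A cells, against 4685, 7558 and 5221 in siGLO cells (-0.53 ± 0.12, adjusted p = 0.0205). Ppia was not called without si12A of mouse 2 or 3 or siGLO of mouse 2 or 3 (adjusted p = 0.0568 to 0.103). Of the 20 reference genes 1 was called, beside 5.44% of all probes. Among the 20, 13 fold changes were below 0, against 236 of 496 over all probes. Their median was -0.11. Eef1g, an elongation factor subunit, had -0.38 ± 0.11 (adjusted p = 0.0543), whereas Rpl19, a ribosomal protein, had 0.01 ± 0.09. Scaling on all 20 moved the median of all probes to -0.09 and left 0 genes higher and 1 lower (Tspan8). Scaling on the 10 reference genes with a mean count of at least 100 moved it to 0.26, with 89 higher and 6 lower, and scaling on the positive controls moved it to -0.38, with 0 higher and 95 lower. Under these scalings and that with DESeq2 size factors each of the 27 called genes kept its direction.

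**Figure D4:**
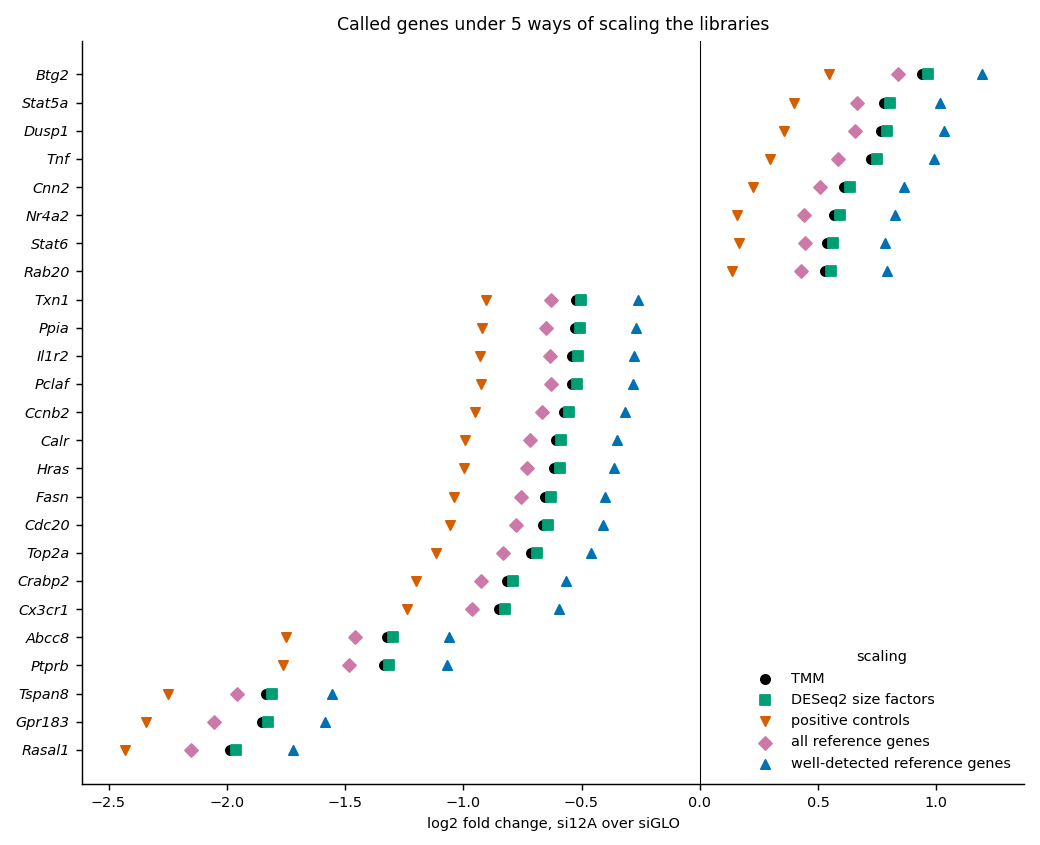
Log2 fold change of si12A over siGLO (x axis) for 25 of the 27 called genes (rows) under 5 ways of scaling the libraries, 1 marker per scaling. Each gene's markers lie on 1 side of 0, with positive controls farthest to the left and well-detected reference genes farthest to the right.

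The mast cell list held 24 tested genes, and 0 of them were called, beside 5.44% of all probes. At that share a list of 24 would hold few calls, so the 0 does not show that these genes were unchanged. Besides receptor, granule and lineage genes the list took in members of the IgE signalling and eicosanoid lists, such as Btk, Syk, Vav1 and Ptgs1. Log2 fold changes ran from -0.28 (Ctsg) to 0.49 (Vav1), with a median of 0.09 beside 0.01 over all probes. Ms4a2, the beta chain of the IgE receptor, held 2408, 2157 and 1939 scaled counts in si12A cells, against 2097, 1459 and 1744 in siGLO cells (0.30 ± 0.11, adjusted p = 0.0919). Cma1, a chymase of the granules, was lower in each mouse without overlap, with 36204, 34931 and 36282 in si12A cells and 41478, 41233 and 44246 in siGLO cells (-0.24 ± 0.08, adjusted p = 0.0676). Cpa3, the granule carboxypeptidase and the most abundant of them, held 71615, 113908 and 75449 in si12A cells, against 90002, 108975 and 79098 in siGLO cells (-0.12 ± 0.12, adjusted p = 0.557). Hdc, which makes histamine, Gata2, a transcription factor of the lineage, and Tpsb2, a tryptase, had log2 fold changes of 0.21 ± 0.12, 0.25 ± 0.12 and 0.02 ± 0.18.

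The other lists of receptors and signalling stand beside the 5.44% called over all probes. Of 16 Fc receptor and IgE signalling genes 0 were called, with Syk, the kinase that binds the receptor, at 0.41 ± 0.19 (adjusted p = 0.176). Interferon response genes had 0 of 15 called and a median of 0.16, eicosanoid genes 0 of 10 and -0.06, survival and apoptosis genes 0 of 14 and 0.02, and Toll-like receptors 0 of 6 and -0.12. MAP kinase genes had 1 of 8 called (Hras), integrins and adhesion genes 1 of 12 (Tspan8), and regulators of small GTPases and G proteins 3 of 17, with Rab20 higher and Rasal1 and Hras lower. C3ar1, the receptor for complement C3a, held 1247, 1012 and 1323 in si12A cells, against 931, 678 and 1193 in siGLO cells (0.38 ± 0.10, adjusted p = 0.0476, under the fold minimum).

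**Figure D5:**
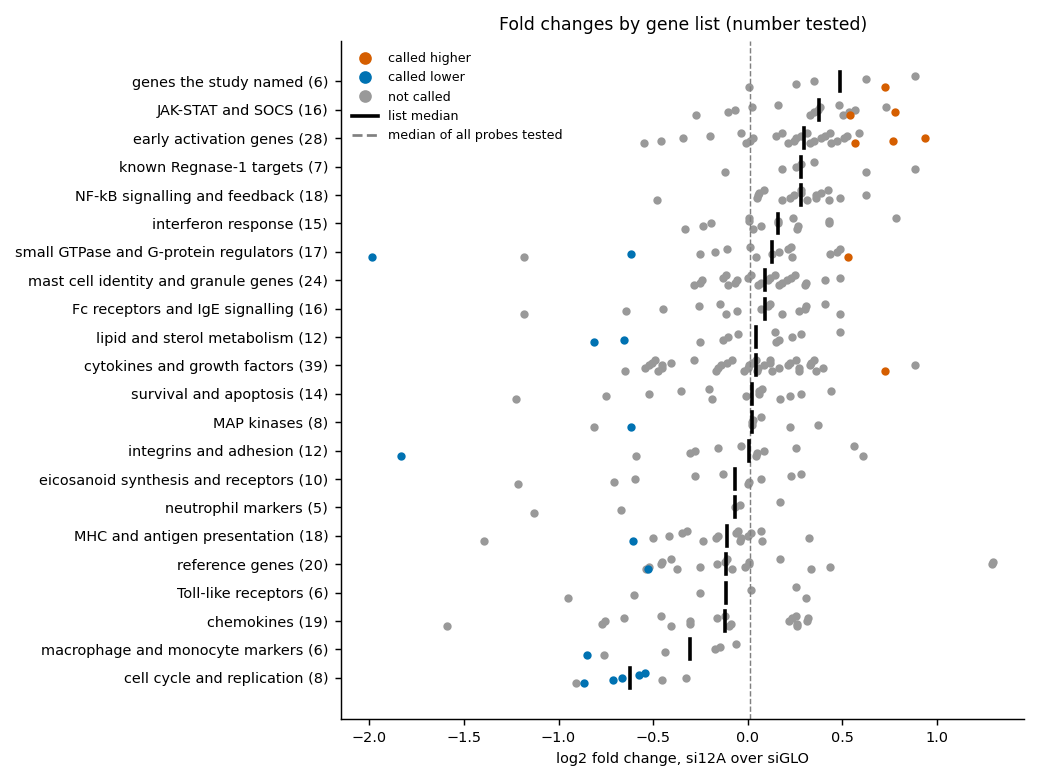
Log2 fold change of si12A over siGLO (x axis) by gene list (rows, with the number tested; lists with 5 or more), 1 point per gene, with orange for genes called higher, blue for lower and grey for not called. Black bars are list medians and the dashed line is the median of all probes, 0.01; the cell cycle list has the lowest median, -0.62.

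The libraries depleted of Regnase-3 alone share the mice and the control with these. Where si12A was set against si12C directly, 12 genes were higher (2.42%) and 12 lower (2.42%), and this contrast uses the same si12A libraries, so it is no independent check of the genes above. Btg2, at 333, 365 and 234 scaled counts in si12A cells, had 154, 144 and 156 in si12C cells (1.01 ± 0.20, adjusted p = 0.013). Tspan8, at 18.5, 59.2 and 25.7 in si12A cells, had 76.5, 256 and 82.2 in si12C cells (-1.95 ± 0.18, adjusted p = 3.78e-05), and its level in si12A+C cells was 24.4, 53.4 and 23.2. Dusp1, Nr4a2 and Cnn2 were also called higher in si12A than in si12C, and Ccnb2, Pclaf, Calr, Crabp2, Ptprb and Txn1 lower.

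Tnf was no such gene, with 6781, 13303 and 5406 scaled counts in si12C cells and a log2 fold change of si12A over si12C of -0.06 ± 0.15 (adjusted p = 0.829). For Stat5a it was 0.33 ± 0.14 (adjusted p = 0.136), with 130, 75.5 and 197 in si12C cells, and for Cx3cr1 -0.24 ± 0.19 (adjusted p = 0.447), with 78.3, 118 and 65.6. Between the depletion of both proteins and that of Regnase-1 alone edgeR called 0 genes in either direction (0%), with 70 of 496 at an unadjusted p under 0.05 and a smallest adjusted p of 0.155, and no other tool was run on that contrast. Dusp1 held 151, 335 and 114 scaled counts in si12A+C cells, against 200, 570 and 138 in si12A cells (-0.50 on the log2 scale, adjusted p = 0.155), and Rasal1 81.7, 102 and 17.6, against 25.3, 27.3 and 7.35 (1.67, adjusted p = 0.232).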

How the data were processed

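Raw probe counts from the nCounter SPRINT Profiler were deposited, and their values show neither scaling nor subtracted background. A second deposited file gives log2 values of 325 probes, 15 of them reference genes. It lay near log2 counts scaled to library size with the difference between mice taken out (SD of mouse means 0.0137, against 0.526 in the counts). How this was done is not given in the sources used here, and the file served as an alternative only. The study's methods name nSolver and Omics Playground.

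A probe entered the test when at least 3 of 12 libraries had a count above the background limit, the negative control mean of that library plus 2 SD over its 8 such probes. This left 496 of 754 probes, 476 of them endogenous. All 12 libraries were fitted with edgeR 4.0.16 (R 4.3.3) by its quasi-likelihood F test, with TMM scaling and the mouse as a block, and p-values were adjusted over the 496 (Benjamini-Hochberg). Calls required adjusted p-values up to 0.05 and a log2 fold change beyond 0.5. The SE was taken as the size of the log2 fold change over the root of its F. Log2 differences within mice used scaled counts plus 1. Errors and p-values cover the spread left between libraries once the block has taken out the difference between mice. This spread was estimated from all 4 groups of 3 cultures. The fitting script was tested on simulated counts.

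Replicate numbers, which come from the labels, pair the libraries. The si12A and siGLO libraries of equal number deviated together (r = 0.362, 0.723 and 0.666 for mice 1, 2 and 3). For mouse 1 this was no closer than an unlike pair, as siGLO of mouse 1 and si12A of mouse 3 had r = 0.406. Over all groups r ran from 0.137 to 0.859 for equal numbers, and from -0.745 to 0.630 for libraries of unlike number and group. Between mice 286 of 496 probes (57.7%) differed. Replicate libraries all differed by more than sampling noise (chi-square per degree of freedom at least 11.3). Alternatives were DESeq2 1.42.0, limma 3.58.1 (trend on the log2 file, voom on counts), 4 scalings, background subtraction, 2 filters, no block, the 6 libraries alone, and single mice or libraries left out. Named genes were all called genes, genes the study named, mast cell genes, known targets, cell cycle genes, the 5 closest to a call in each direction and up to 4 per list by adjusted p. Acly, Rpl19, Stat5b, Maff, Syk and Ly6c1 are named outside this rule, chosen after their values were seen. A few genes that were tested and counted are not reported here. Members and lists were chosen with earlier results of these data known.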

Additional observations from a re-analysis of the deposited data

Results flagged for a closer look

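The positive control probes are spiked at the same amount into every assay and served the comparison only as an alternative scaling. They gave more counts with si12A in each of the 3 mice, with a mean log2 ratio to siGLO of 0.768. Their geometric means were 588, 579 and 643 counts in si12A of mice 1, 2 and 3, against 500.0, 249 and 355 in siGLO. The part of this difference in the counts of called genes was not tested beyond the scaling on these controls.

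Among the 258 probes left out of the test, 16 passed the background in 1 or more si12A libraries and in no siGLO library, and 25 did the reverse. Only 1 of the 16 passed it in 2 si12A libraries.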

How the results depend on the processing

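Without the replicate block (no pairing by mouse) edgeR called 0 genes higher and 0 lower, and with only the si12A and siGLO libraries in the fit 0 higher and 1 lower. Rises numbered 16 with DESeq2, 18 with limma-trend on the deposited log2 values, and 15 with no filter on low counts. When positive controls set the scale there were 0 higher and 95 lower, with all reference genes 0 higher and 1 lower, and with well-detected reference genes 89 higher and 6 lower. Leaving out 1 mouse or 1 library in turn gave 1 to 32 higher and 1 to 39 lower. The fit lacking mouse 1 called 32 higher and 39 lower, that lacking mouse 2 called 4 of each and that lacking mouse 3 called 1 of each. The cause of these shifts was not tested. The remaining settings (limma-voom, DESeq2 size factors, negative control subtraction, the stricter filter) gave 9 to 13 higher and 13 to 20 lower. All 27 called genes kept their direction in every setting that tested them, and DESeq2 and edgeR with DESeq2 size factors each called all 27. These genes were called from the same libraries and moved the same way in 3 of 3 mice, so a kept direction is no separate support. For genes with means near 20 scaled counts, the background of up to 31.6 scaled counts limits what the fold change can show.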
